A study of Mus musculus with 4 samples.

Results

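The insulin-like growth factor (IGF) system was followed through 4 sorted fractions of reprogramming mouse embryonic fibroblasts (MEFs). Its members were the 10 genes Igf1, Igf2, Igf1r, Igf2r, Igfbp2, Igfbp3, Igfbp4, Igfbp5, Igfbp6 and Igfbp7, ligands, receptors and binding proteins out of 18193 named genes on the array. They were chosen with earlier results of these data known, so counts among them describe a picked list. The binding protein gene Igfbp1, also on the array, was not among them. The 10 members were read by 28 probe sets, each a group of short probes against one part of a transcript. All 10 genes reached the floor for a measured gene on at least 1 array, as did 11428 of all genes. The floor was the median of all values, 4.53 on the log2 scale.

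The fractions were Oct4-negative cells, Oct4-positive cells without Klf4 (written Oct4+Klf4-negative), Oct4+Klf4+EpCAM-negative cells and Oct4+Klf4+EpCAM+ cells, each read on 1 array. Oct4 and Klf4 are transcription factors used to reprogram cells, and EpCAM is an adhesion protein of epithelial cells. All fractions were fixed, permeabilized, stained and sorted. The labels call every fraction MEFs and give no strain, age, day of sorting, introduced factor or delivery, and they do not say whether Oct4-negative cells came out of the same dish as the rest, so a difference from that array and one between cultures cannot be told apart. With 1 array per fraction there is no replicate, no error and no test of a difference; precision is limited by how few arrays there are. In bulk RNA, fewer cells that express a gene and less RNA per cell cannot be told apart.

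IGF1 and IGF2 are secreted growth factors that activate the receptor tyrosine kinase IGF1R, which signals through adaptor proteins to PI3K, AKT and MAP kinases. IGF2R, the cation-independent mannose 6-phosphate receptor, carries IGF2 to lysosomes for destruction and does not signal as IGF1R does. The IGFBPs bind the ligands outside the cell, where they can store them or keep them from the receptor, and proteases release the ligands again. Igf2 and Igf2r are imprinted in the mouse, Igf2 being expressed mainly from the paternal and Igf2r from the maternal copy. Fibroblasts are a usual source of both ligands and of several binding proteins.

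As a check of the labels, the Pou5f1 transcript of Oct4 lay at 7.59 in the Oct4-negative array and between 11.48 and 11.70 in the others, and Epcam ended at 9.52 from 6.54 before its gate. The brighter Klf4 probe set followed its gate (6.24 before it, 10.20 after), while the other went the opposite way (5.69 and 2.67). Of 8 fibroblast markers 7 reached the floor, and the mean level of all 8 was 8.16, 7.69, 6.16 and 5.50 in gate order. From the first fraction to the last 6 of them were at least 2-fold lower, beside 10.8% of all measured genes. Dcn, however, was higher by 4.22 on the log2 scale. The marker that missed the floor was Pdgfra, a defining fibroblast receptor, under it on all 4 arrays and at or below background on the middle pair. Background here is 2.94, the highest level of 27 control probe sets against bacterial genes.

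The ligands, receptors and binding proteins did not all share the same course through the gates. Igf1 was high in the Oct4+Klf4-negative array alone, Igf2 was high at the ends of the series and low between them, Igf2r stepped down, and Igf1r stayed level. Among the binding proteins, Igfbp4 was high in the Oct4-negative array and Igfbp5 in Oct4+Klf4+EpCAM-negative cells. Igfbp6 was higher in both Klf4-positive arrays than in the others, with no 2-fold gap between levels next to each other in size. The highest and lowest of the 4 levels differed by at least 2-fold for 7 of the 10 members, with a median spread of 1.92 on the log2 scale. Of all genes reaching the floor, 30.9% had a spread of that size and the median was 0.62.

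**Figure D1:**
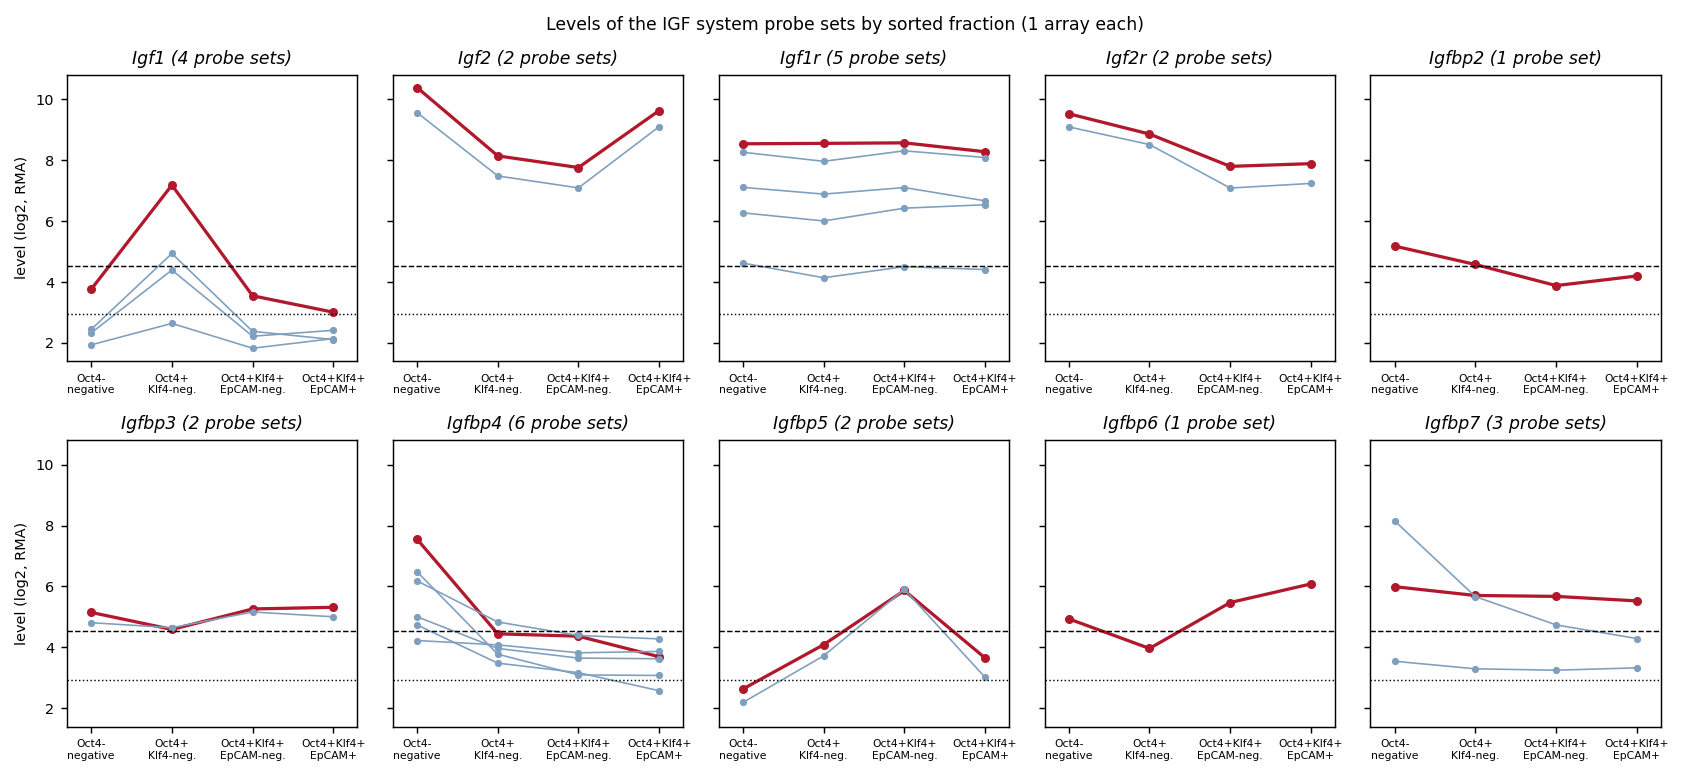
Log2 level (vertical axis) of each probe set of the 10 IGF system genes in the 4 sorted fractions (horizontal axis, 1 array each). Red lines are the probe set that stands for the gene, blue lines its other probe sets, the dashed line is the floor of 4.53 and the dotted line the background of 2.94; Igf1 peaks at 7.18 in the Oct4+Klf4-negative array and Igf2 runs from 10.39 down to 7.76 and back to 9.63.

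A gene was called higher or lower at a gate where the difference was 2-fold or more and at least the upper level was at the floor, a rule of size and not a test. Where a gene had several probe sets, the one with the highest mean stood for it. At the Oct4 gate (Oct4+Klf4-negative against Oct4-negative), Igf1 was higher and Igf2 and Igfbp4 were lower, 3 of 10 members beside 8.43% of all measured genes (3.59% higher and 4.84% lower). At the Klf4 gate, Igfbp5 and Igfbp6 were higher and Igf1 and Igf2r lower, 4 of 10 members beside 15.3% (8.44% higher and 6.88% lower). At the EpCAM gate, Igf2 was higher and Igfbp5 lower, 2 of 10 members beside 4.89% (3.11% higher and 1.79% lower). From the first fraction to the last, Igfbp6 was higher while Igf2r and Igfbp4 were lower, 3 of 10 members beside 22.6% (11.9% higher and 10.8% lower). Neighbouring gates share an array, so a level that is high in 1 fraction enters both, and the comparison of the ends shares an array with the Oct4 gate and with the EpCAM gate.

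**Figure D2:**
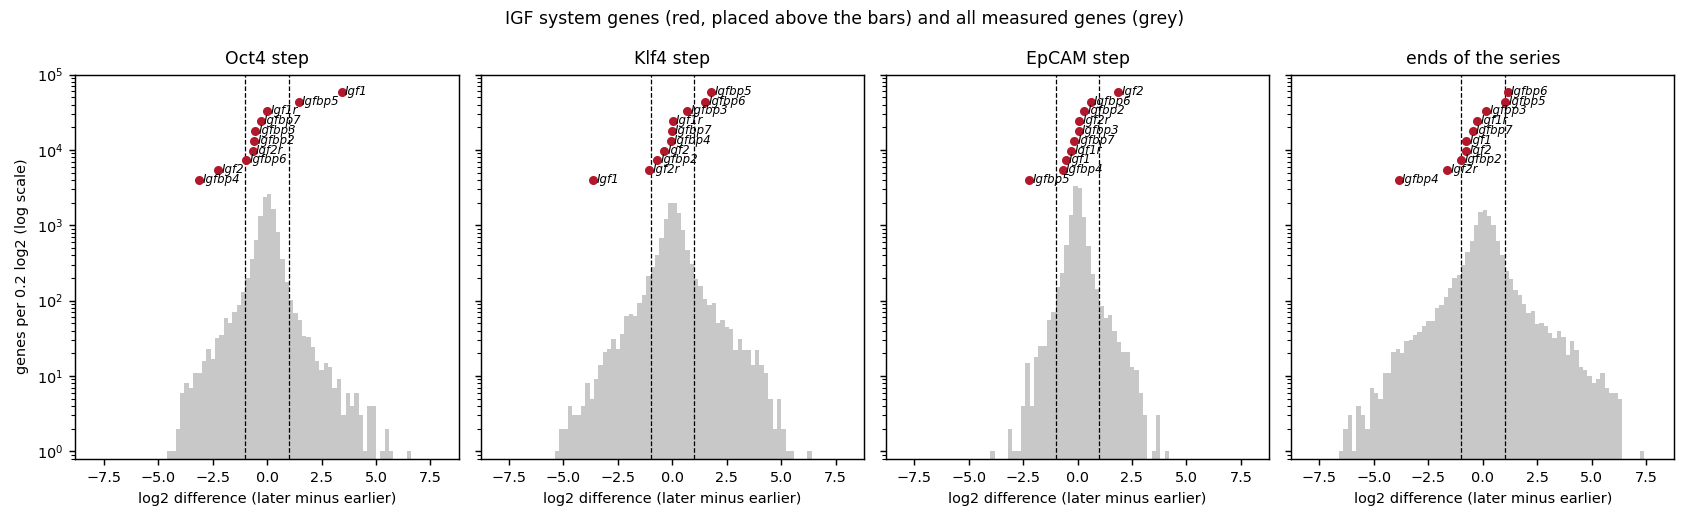
Number of measured genes (vertical axis, log scale) by log2 difference (horizontal axis) in each of the 4 comparisons, with the 10 IGF system genes as red points at their own log2 difference, placed above the bars only for legibility. Dashed lines mark a 2-fold difference; Igf1 lies at 3.42 in the Oct4 step and at -3.64 in the Klf4 step.

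The median log2 difference of the members was -0.58 at the Oct4 gate, where that of all measured genes was 0.02. It was -0.05 against 0.04 at the Klf4 gate, -0.05 against -0.00082 at the EpCAM gate, and -0.61 against 0.07 between the ends. Counted by probe set, 24 of the 28 reached the floor, and 10, 7 and 4 of these were called at the Oct4, Klf4 and EpCAM gates, beside 7.86%, 13.7% and 3.85% of all named probe sets reaching it. Between the ends 9 were called, beside 20.8%. Igfbp4 alone gave 5 of those called at the Oct4 gate and 5 of those between the ends. Probe sets of the same gene are not independent readings.

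The stretches of DNA just before 4 of the start sites are shown because these genes held the sharpest contrasts: Igf1 and Igfbp5 were low in the Oct4-negative array and high in a later fraction, and Igfbp4 and a probe set of Igfbp7 were high there and lower afterwards. Each is the 250 bases before the RefSeq start, 5′ to 3′ on the gene's strand. Capitals mark the motifs searched on both strands, which were the TATA box TATAAA, the GC box GGGCGG, a KLF motif GGGTGTGG, the Oct4 octamer ATGCAAAT and the E-box CAGGTG.
Igf1 (GRCm38.p6, chr10:87860861-87861110, plus strand): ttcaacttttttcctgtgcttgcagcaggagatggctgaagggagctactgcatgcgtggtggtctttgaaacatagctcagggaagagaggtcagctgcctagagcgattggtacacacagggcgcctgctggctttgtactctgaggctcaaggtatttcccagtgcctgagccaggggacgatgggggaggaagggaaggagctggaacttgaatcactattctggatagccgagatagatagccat
Igfbp5 (GRCm38.p6, chr1:72874866-72875115, minus strand): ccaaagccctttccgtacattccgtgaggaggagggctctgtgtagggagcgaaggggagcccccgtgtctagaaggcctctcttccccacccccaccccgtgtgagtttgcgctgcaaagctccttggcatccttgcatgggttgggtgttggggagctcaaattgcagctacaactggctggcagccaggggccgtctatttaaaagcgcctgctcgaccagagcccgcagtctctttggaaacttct
Igfbp4 (GRCm38.p6, chr11:99040994-99041243, plus strand): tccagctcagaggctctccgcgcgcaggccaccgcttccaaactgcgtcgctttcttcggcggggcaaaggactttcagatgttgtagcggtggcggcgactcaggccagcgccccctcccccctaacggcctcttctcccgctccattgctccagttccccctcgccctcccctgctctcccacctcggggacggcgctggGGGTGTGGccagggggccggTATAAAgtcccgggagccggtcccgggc
Igfbp7 (GRCm38.p6, chr5:77408046-77408295, minus strand): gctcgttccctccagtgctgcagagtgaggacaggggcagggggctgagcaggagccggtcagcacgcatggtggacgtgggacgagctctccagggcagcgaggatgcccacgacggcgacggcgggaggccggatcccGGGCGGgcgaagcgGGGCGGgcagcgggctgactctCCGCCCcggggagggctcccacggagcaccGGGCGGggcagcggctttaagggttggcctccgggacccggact

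The Igfbp4 window held a TATA box from 28 to 23 bases before the start and a KLF motif from 48 to 41 bases before it, which did not overlap. Of 32851 such windows over all genes, 12.4% held the TATA box and 3.2% the KLF motif. The Igfbp7 window held 4 GC boxes, a motif found in 32.7% of windows, and had 26 CpG pairs where the median window had 6. The Igf1 and Igfbp5 windows held none of the 5 motifs and had 5 and 10 CpG pairs. Over all 14 windows of the 10 members, the octamer (1.6% of all windows) was not found, and the E-box (17.2% of all windows) was found before Igf2r and Igfbp3. These are matches of letters in short windows and do not show that a factor binds there or which start site a fraction used.

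Igf1, which encodes the ligand of growth hormone action and of local tissue growth, was the member with the widest spread. Its brightest probe set had levels of 3.76, 7.18, 3.55 and 3.01 in gate order. The Oct4+Klf4-negative array was the high one, 10.7-fold above the Oct4-negative array and 12.4-fold above the Oct4+Klf4+EpCAM-negative array, and the other 3 levels lay below the floor and within 0.75 of each other. The next probe set gave 2.44, 4.94, 2.38 and 2.11, and the third gave 2.33, 4.39, 2.22 and 2.41. The fourth gave 1.94, 2.64, 1.83 and 2.14, below background on every array. All 4 probe sets were highest in the Oct4+Klf4-negative array, although only the first pair reached the floor.

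Igf1 is also made by macrophages, so their markers were read in the same arrays. Only Cd68 of the 8 macrophage and leukocyte markers reached the floor, at 7.76, 5.95, 6.32 and 6.48. The mean level of the list lay between 3.12 and 3.35, 5 of its 8 markers were at or below background in the Oct4+Klf4-negative array, and Adgre1, Aif1 and Itgam were so on all 4 arrays. Neural markers moved with Igf1 at the Oct4 gate, with 5 of 8 higher and 1 lower, beside 3.59% and 4.84% of all measured genes. Their mean level was 5.38 before and 6.57 after that gate, but went on to 7.65 at the Klf4 gate where Igf1 was lower. The Gapdh control probe sets at the 3′ and 5′ ends, a gauge of RNA quality, were 1.30 apart in the Oct4+Klf4-negative array. They were between 0.97 and 1.04 apart in the others. The same gauge for Actb was level, with 3′ minus 5′ between -0.07 and -0.05 on all 4 arrays. The part of macrophages, of neural cells or of RNA quality in the Igf1 level was not tested.

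Igf2, the fetal growth ligand, had levels of 10.39, 8.14, 7.76 and 9.63 by its brighter probe set and of 9.57, 7.48, 7.09 and 9.10 by the other. The Oct4-negative and Oct4+Klf4+EpCAM+ arrays were the high pair, and the fractions between them were low in both probe sets. The level was 4.74-fold lower in Oct4+Klf4-negative than in Oct4-negative cells, and 3.66-fold higher in Oct4+Klf4+EpCAM+ than in Oct4+Klf4+EpCAM-negative cells. Within the high pair the levels differed by 0.76, and within the low pair by 0.38, both under 2-fold. A call lower at the Oct4 gate and higher at the EpCAM gate, comparisons with no array in common, was shared by 43 genes. They are 7.78% of the 553 lower at the first, where 3.11% of all measured genes were higher at the second. They are also 12.1% of the 355 higher at the second, where 4.84% of all measured genes were lower at the first.

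Epithelial markers were higher at the EpCAM gate together with Igf2, 7 of 8 of them, beside 3.11% of all measured genes. Their mean level was 6.07 before and 8.48 after that gate. Epcam was among the 7, and the cells were sorted on its protein, so the gate itself set part of this count and mean. Endoderm and liver markers, which mark other sources of Igf2, had 1 of 6 members reaching the floor, with mean levels between 3.13 and 3.35 over the 4 arrays, and Afp, Foxa2 and Sox17 lay at or below background on each. The part of epithelial cells in the Igf2 level was not tested.

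Igf1r, the signalling receptor, had levels of 8.54, 8.55, 8.57 and 8.28 by its brightest probe set. Sorted from highest to lowest, no neighbouring levels differed by more than 0.26. Its 5 probe sets differed by at most 0.48 in either direction at any gate or between the ends, and none was called in any comparison. The related insulin receptor gene Insr had levels of 7.19, 7.43, 7.76 and 7.94 and was not called either.

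Igf2r, the receptor that clears IGF2, had levels of 9.53, 8.86, 7.80 and 7.89 by its brighter probe set and of 9.10, 8.52, 7.09 and 7.24 by the other. The Klf4-negative arrays were the higher pair and the Klf4-positive arrays the lower, and the latter differed by only 0.09 and 0.15 in the respective probe sets. The step at the Klf4 gate was 2.09-fold lower by the brighter probe set, just past the rule, and fell by 1.43 on the log2 scale by the other. With the arrays centred on housekeeping genes the brighter probe set was no longer called at that gate, and the members' count there became 2 higher and 1 lower. Between the ends Igf2r was 3.11-fold lower. Fibroblast markers were lower at the Klf4 gate together with Igf2r, 6 of 8 of them, beside 6.88% of all measured genes. Dcn was higher there (by 2.36 on the log2 scale). The part of fibroblasts in the Igf2r level was not tested. Airn, the long noncoding RNA that runs antisense to Igf2r on the paternal copy, had levels of 8.48, 7.54, 6.60 and 7.22 and was 2.39-fold lower between the ends. Both genes overlap, and the sources used here do not say which strand was read, so their readings may not be independent.

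**Figure D3:**
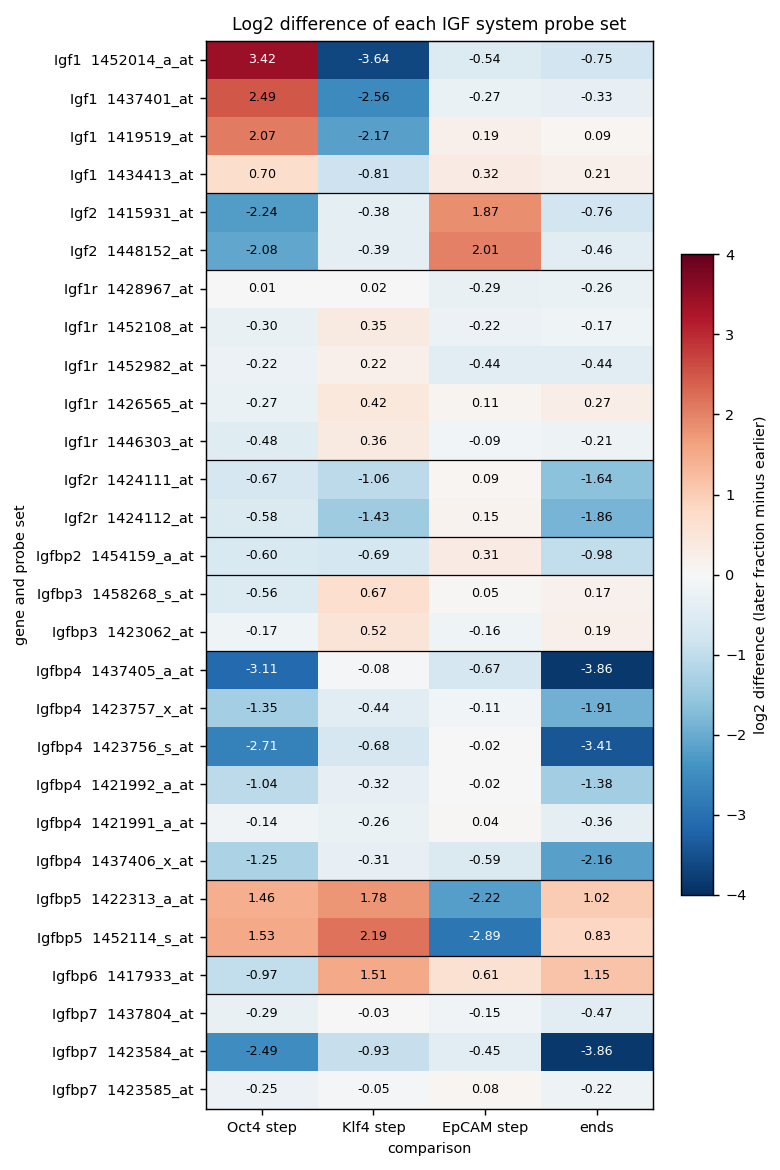
Log2 difference (colour and printed value) of each of the 28 IGF system probe sets (rows) in the 4 comparisons (columns), later fraction minus earlier. Probe sets of Igf2, Igf2r and Igfbp5 go together in each gate, whereas 1 of the 3 Igfbp7 probe sets gives -2.49 at the Oct4 step and the others -0.29 and -0.25.

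Igfbp4, a binding protein that mostly restrains IGF action, was the member with the largest lower difference at the Oct4 gate. Its brightest probe set had levels of 7.55, 4.44, 4.37 and 3.69, so that the Oct4-negative array was high and the rest lay below the floor. It was 8.63-fold lower at the Oct4 gate and 14.5-fold lower between the ends. Of its 6 probe sets all had their highest level in the Oct4-negative array, and the 5 that reached the floor were each called lower at the Oct4 gate, with log2 differences from -3.11 to -1.04. The sixth, never at the floor, gave -0.14. At the same gate 3 of 8 fibroblast markers were lower (Col1a1, Col1a2 and Pdgfrb) and Thy1 and Dcn higher. Of 5 adipocyte markers 1, Fabp4, was lower. Of all measured genes 4.84% were lower and 3.59% higher there. The part of fibroblasts or adipocytes in the Igfbp4 level was not tested.

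Igfbp7, a relative that binds IGFs only weakly and is also known as a matrix and vessel protein, gave readings that depended on the probe set. The probe set with the highest mean had levels of 5.99, 5.70, 5.67 and 5.53 and was not called in any comparison. Another had levels of 8.15, 5.67, 4.74 and 4.29, the Oct4-negative array being high, and fell by 2.49 on the log2 scale at the Oct4 gate and by 3.86 between the ends. The third had levels between 3.25 and 3.54. All 3 were highest in the Oct4-negative array. By the mean of its probe sets Igfbp7 was called lower at the Oct4 gate (-1.01 on the log2 scale) and between the ends (-1.52). Represented by the probe set with the highest single level, a choice made after seeing the data, it was called lower in both as well, and under either setting 4 of 10 members were called in each of these comparisons. Of 8 endothelial markers 3 reached the floor, and at the Oct4 gate 1 was higher and none lower, beside 8.43% of all measured genes called. Their part in the Igfbp7 level was not tested.

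Igfbp5, which binds to matrix as well as to IGFs, was high in the Oct4+Klf4+EpCAM-negative array. Its 2 probe sets had levels of 2.63, 4.09, 5.87 and 3.65 and of 2.19, 3.72, 5.91 and 3.02. Only that array reached the floor, and the Oct4-negative level lay below background in both. At the Klf4 gate Igfbp5 was 3.43-fold higher, and at the EpCAM gate 4.64-fold lower. At the Oct4 gate its higher level, 4.09, stayed below the floor. It was not called there although it was at least 2.21-fold above the Oct4-negative level. Neural markers were higher at the Klf4 gate too, 4 of 8 of them with 2 lower, beside 8.44% and 6.88% of all measured genes. At the EpCAM gate 2 of 8 were lower, beside 1.79%. The part of neural cells in the Igfbp5 level was not tested.

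Igfbp2, the gene beside Igfbp5 in the RefSeq gene order of assembly GRCm38.p6, differed in the opposite direction from it at each gate, with levels of 5.18, 4.58, 3.88 and 4.20. It was lowest where Igfbp5 was highest. It was not called in any comparison, the difference between the ends being 1.98-fold, just under the rule. With the arrays centred on measured genes or on housekeeping genes it was called lower between the ends. Igfbp2 is a binding protein of fetal tissues and was read by 1 probe set.

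Igfbp6, which prefers IGF2 over IGF1, was read by 1 probe set with levels of 4.94, 3.96, 5.47 and 6.08. The Klf4-positive arrays were the higher pair. It was 2.84-fold higher at the Klf4 gate and 2.21-fold higher between the ends, and its difference at the Oct4 gate, 1.96-fold lower, fell just short of the rule and passed it with housekeeping centring. Its neighbour in the gene order, Spryd3, had levels of 6.69, 6.14, 7.06 and 7.57.

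Igfbp3, the main carrier of IGFs in serum, had levels of 5.15, 4.59, 5.26 and 5.32 by the brighter probe set and between 4.64 and 5.16 by the other. Both were lowest in the Oct4+Klf4-negative array, and no comparison passed the rule. Its neighbour in the gene order, Igfbp1, a liver binding protein outside the 10 members, lay below background on all 4 arrays, between 2.34 and 2.46.

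The genes with the most similar pattern were sought by the distance between 4 log2 levels centred on their mean, among 11000 measured genes with a characterized symbol. With 4 arrays such likeness is a description only. Nearest to Igf1 were Nebl, Negr1 and Ndst3, at distances of 0.23, 0.30 and 0.38, Negr1 being a neuronal adhesion protein. Nearest to Igf2 were Pak6, Micall2 and Gjb5, at 0.36, 0.50 and 0.58, the last a gap junction protein of skin and placenta. Igf2r was matched by Vcl (0.06), which encodes vinculin, Cited2 (0.11) and Tpm1 (0.11), which encodes a tropomyosin of the actin cytoskeleton.

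Igfbp4 lay nearest to Tlr4 (0.42), Cbr2 (0.44) and Lrrc17 (0.49), and Igfbp5 to Gda (0.50), Entpd3 (0.60) and the collagen gene Col15a1 (0.84). Igfbp2 lay nearest to Pde4a (0.08), Pkd1 (0.10) and Tmem159 (0.12), and Igfbp6 to Afg1l (0.16), Tes (0.17) and Pla1a (0.19). No member was among the 3 nearest genes of these 7. The smallest distance from any of the 7 to another member was 0.54, between Igf2r and Igfbp2; Igf1r, Igfbp3 and Igfbp7, with a spread under 2-fold, were not searched.

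**Figure D4:**
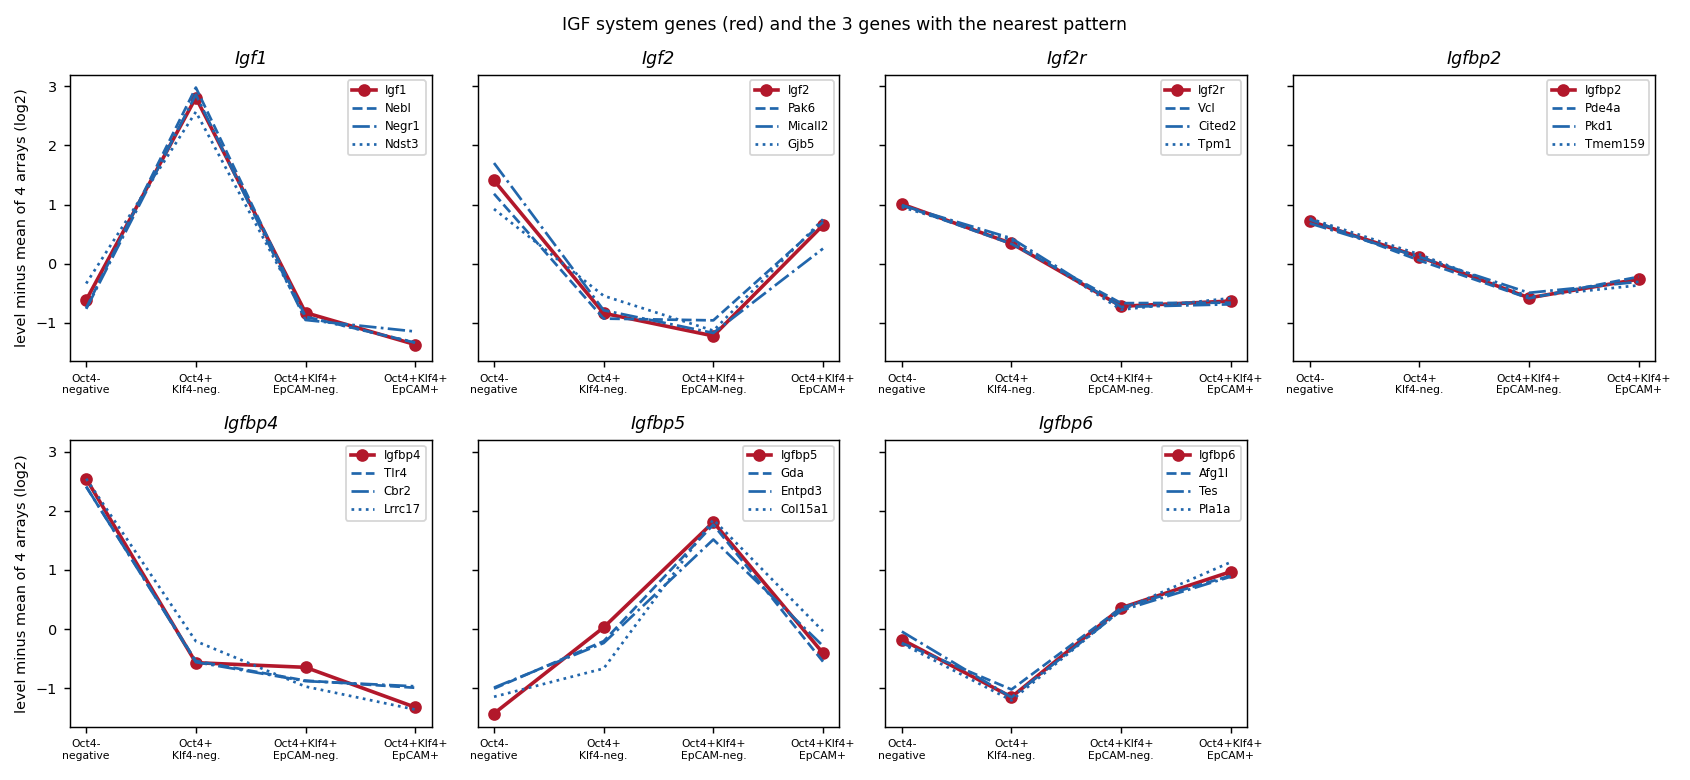
Log2 level minus the gene's mean over the 4 arrays (vertical axis) by sorted fraction (horizontal axis), for the 7 IGF system genes with at least a 2-fold spread (red) and the 3 genes of nearest pattern (blue). The nearest genes overlie Igf2r and Igfbp2 at distances of 0.06 to 0.12 and follow Igfbp5 less closely, at 0.50 to 0.84.

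The other genes of the pathway were taken from lists of ligands and receptors, IGFBP proteases, IGF2 mRNA-binding proteins, adaptors and kinases, the growth hormone axis and mannose 6-phosphate sorting. Of 61 such genes on the array 53 reached the floor. At the Oct4 gate 3 were higher and 1 lower, at the Klf4 gate 3 higher and 7 lower, at the EpCAM gate 1 higher and 2 lower, and between the ends 4 higher and 7 lower. These are 4, 10, 3 and 11 of 53 genes, near the shares of all measured genes called (8.43%, 15.3%, 4.89% and 22.6%), so the counts show nothing particular to the list. With housekeeping centring the counts were 1 higher and 2 lower at the Oct4 gate, and 2 higher and 2 lower at the EpCAM gate. Their median log2 differences were 0.03, 0.09, -0.03 and 0.05.

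Pappa, a metalloprotease that cleaves IGFBP4, had levels of 5.69, 5.33, 3.24 and 3.23, and Htra1, a secreted protease that also cleaves IGFBPs, had levels of 8.52, 9.69, 7.33 and 6.34. Both were lower at the Klf4 gate, by 4.25-fold and 5.12-fold, and Htra1 was 2.25-fold higher at the Oct4 gate, a call lost with housekeeping centring. Of 6 protease and inhibitor genes on the array 3 reached the floor, and of these only Pappa and Htra1 were called in any comparison. Of all measured genes 8.43%, 15.3% and 4.89% were called at the gates and 22.6% between the ends. Igfals, the acid-labile subunit that joins IGF complexes in serum, had levels of 3.21, 5.04 and 3.90 in the 3 Oct4-positive fractions and a lower one in Oct4-negative cells, so that the Oct4+Klf4+EpCAM-negative array was the high one, as for Igfbp5. Igf2bp1 and Igf2bp3, which bind Igf2 mRNA, had levels between 7.16 and 7.72 and between 9.05 and 9.44 and were not called.

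Of 32 adaptor and kinase genes on the array, 1 was higher and 1 lower at the Oct4 gate, 1 higher and 4 lower at the Klf4 gate, and none was called at the EpCAM gate. With 31 of the 32 reaching the floor, the counts at the Oct4 and Klf4 gates are near the shares of all genes, 8.43% and 15.3%. At the EpCAM gate that share was 4.89%, too low for the lack of a call among 31 genes to set the list apart. Grb14, an adaptor that restrains insulin receptor signalling, had levels of 7.41, 9.94, 6.10 and 5.34, highest in the Oct4+Klf4-negative array as Igf1 was, with a 14.4-fold lower level after the Klf4 gate. Pik3r1 and Pik3r3, regulatory subunits of PI3K, were 5.32-fold and 2.67-fold lower at the Klf4 gate, and Foxo4, a transcription factor that AKT restrains, was 8.05-fold higher there. Irs1, the main adaptor of IGF1R, had levels of 7.19, 6.65, 5.71 and 4.76, lower at each gate without reaching 2-fold at any, and was 5.39-fold lower between the ends.

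Ghr, the growth hormone receptor that drives Igf1 transcription in liver, had levels of 7.75, 7.84, 4.93 and 2.75. It was high in the Klf4-negative arrays, 7.53-fold lower at the Klf4 gate and at least 3.97-fold lower at the EpCAM gate. The call at the EpCAM gate depended on the probe set. Ghr was not called there with the mean of all probe sets, nor without probe sets that can read several transcripts. Stat5a, which acts below that receptor, ran the other way with levels of 6.53, 6.01, 7.75 and 8.69. None of the 9 genes of mannose 6-phosphate sorting was called in any comparison. The shares of all measured genes called were 8.43%, 15.3% and 4.89% at the gates and 22.6% between the ends. A list of 9 genes is too small to set such a count apart. Among the 9 was M6pr, the small cation-dependent receptor, with levels of 8.52, 8.60, 9.10 and 9.24 where those of Igf2r went down.

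Imprinted growth genes other than the members were counted apart. Of 14 on the array 11 reached the floor, and the shares of all measured genes called at the 3 gates were 8.43%, 15.3% and 4.89%. At the Oct4 gate 2 were lower, Dlk1 (7.95-fold), a fetal growth regulator, and Cdkn1c (2.03-fold), a cell cycle inhibitor. At the Klf4 gate Nnat, Peg3, Plagl1 and Ndn were lower, by 3.54-fold, 3.05-fold, 3.01-fold and 2.13-fold, and Phlda2, a placental growth regulator, 3.73-fold higher. At the EpCAM gate, where Igf2 was higher, Phlda2 was again higher (2.58-fold) and Ndn lower (2.63-fold).

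**Figure D5:**
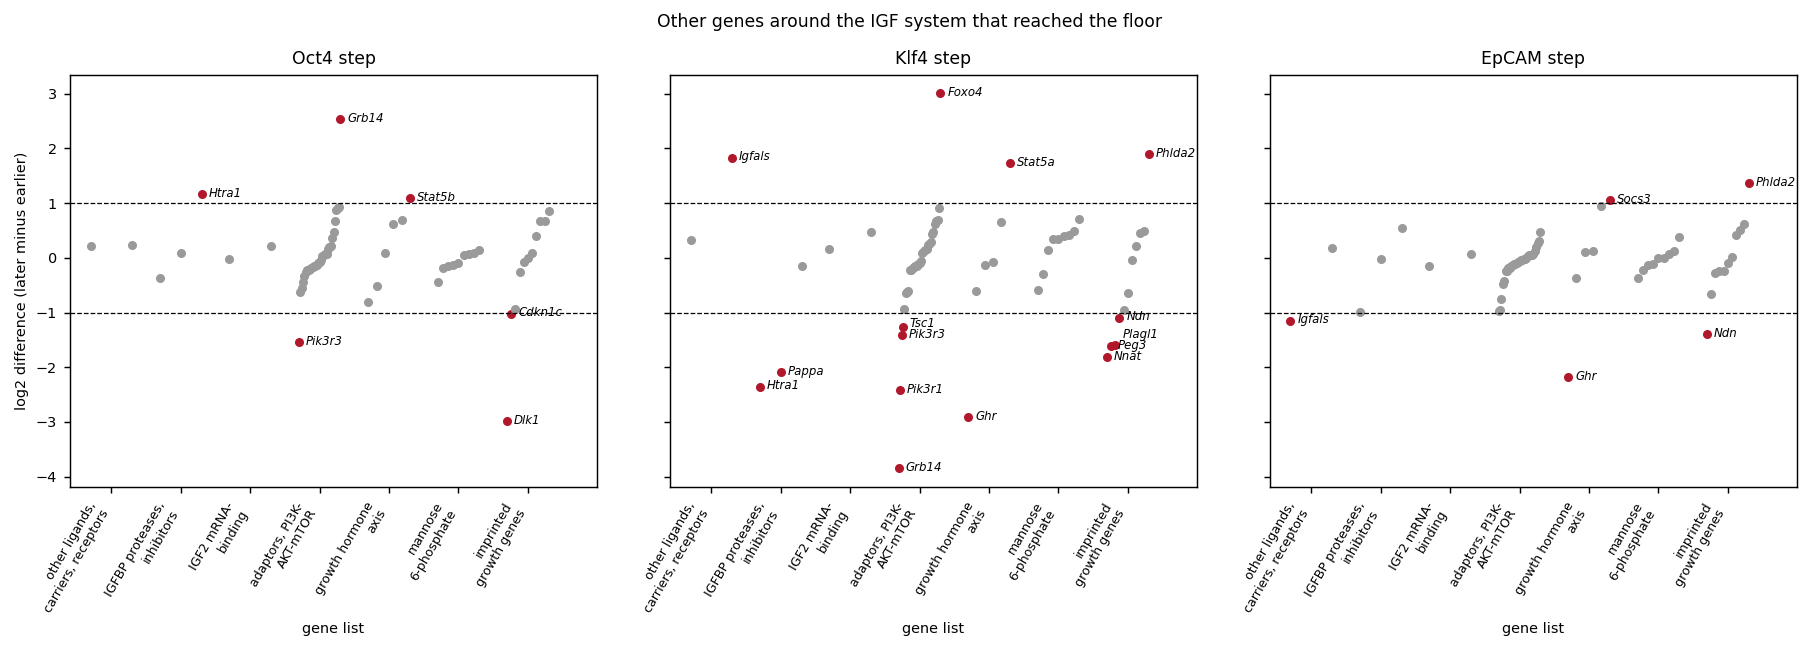
Log2 difference (vertical axis, later fraction minus earlier) of listed genes around the IGF system that reached the floor, by gene list (horizontal axis) at the 3 gates. Red points with names passed the 2-fold rule and grey points did not. Grb14 moves from 2.53 at the Oct4 step to -3.85 at the Klf4 step. No gene of the mannose 6-phosphate list, of 9 genes, passes the rule, which 8.43%, 15.3% and 4.89% of all measured genes passed at the 3 gates.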

How the data were processed

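Values were the deposited log2 levels of 45101 probe sets on 4 arrays, which the authors made by robust multi-array average (RMA), per the submitters' processing notes; the sources used here do not give its version. Per the labels' protocols, RNA was recovered from fixed cells (RecoverAll) and amplified (Ovation Pico WTA), steps that can alter levels. Probe sets with several symbols (932) or unlisted in the platform annotation (9160), and 64 controls, named no gene. All 10 members matched RefSeq (GRCm38.p6). Each gene took its probe set of highest mean. If the dimmer reading was no higher than background, the fold was taken against background and is given as "at least". No test was possible with 1 array a group. Simulated data checked the code of the calling rule only, not the calls. Probe sets of the same gene had a median SD of 0.17, 0.17, 0.12 and 0.18 in the log2 differences of the 3 gates and the ends, over 5708 genes.

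Members and lists were chosen with earlier results of these data known. Named were all members, up to 4 called genes per list and comparison, gene neighbours, the 3 nearest patterns, and markers; Insr, Igf2bp1, Igf2bp3 and M6pr were named after their values were seen. Of 66 other pathway genes 61 were on the array. Alternatives were other probe set choices, floors, a 1.5-fold rule and 2 centrings. Python 3.11.15, numpy 2.4.6 and pandas 2.3.3 were used.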

Additional observations from a re-analysis of the deposited data

Results flagged for a closer look

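Probe sets annotated to several genes were outside the comparisons but 2 of them touch the IGF system. The probe set annotated jointly to Airn and Igf2r read 5.44, 4.93, 4.78 and 5.01 in gate order, above background on all 4 arrays. The probe set annotated jointly to Mir675 and H19, the imprinted noncoding gene near Igf2, read 2.73, 2.41, 2.27 and 3.43, above background in the Oct4+Klf4+EpCAM+ array alone.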

How the results depend on the processing

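No paired analysis was possible because each fraction was read on 1 array, and for the same reason no replicate could be left out. Raising the floor to 6.87, the 75th percentile of the values, left 2 called members at the Klf4 gate, Igf1 and Igf2r. At the EpCAM gate it left 1, Igf2, and no call of Igfbp5 or Igfbp6 was kept in any comparison. The raised floor also left 1 called pathway gene at the EpCAM gate. In all it left 494, 938 and 221 called genes at the 3 gates and 1528 between the ends. With a 1.5-fold rule, the members numbered 6 at the Oct4 gate and 5 between the ends, the pathway genes 12, 22 and 8 at the gates and 22 between the ends, and all genes 2073, 3233 and 1325 at the gates and 4450 between the ends. The main counts of all genes were 963, 1751, 559 and 2588. The other settings kept every total within 1.5 times, but not every count in 1 direction. Pathway genes higher between the ends went from 4 to 2 with the mean of probe sets, and those higher at the EpCAM gate from 1 to 0 without probe sets that can read several transcripts and to 2 with housekeeping centring. With no floor, members higher at the Oct4 gate and between the ends went from 1 to 2 each and pathway genes lower at the Oct4 gate from 1 to 2, as the last did with the highest single level. With housekeeping centring, members lower at the Klf4 gate went from 2 to 1, and pathway genes at the Oct4 gate from 3 higher and 1 lower to 1 and 2. Centring on housekeeping genes shifted all log2 differences at the Oct4 gate down by 0.22 and those at the Klf4 gate up by 0.11, and the split of all calls at the Oct4 gate went from 410 higher and 553 lower to 301 and 792. No called member changed direction under the settings that altered the probe set or the scaling. The log2 differences of members moved beyond the scatter between probe sets in 17 of 40 cases with the mean of all probe sets, in 10 with housekeeping centring, in 7 with the highest single level and in 2 without probe sets that can read several transcripts. Levels near background, as for Igf1 and Igfbp5 outside their high fraction, bound what a fold can show.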
